A study of Rattus norvegicus with 56 samples.

Results

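The cortical collecting duct (CCD) of rats was compared after 3 h of unilateral ureteral obstruction (UUO) with the same segment after a sham operation. All 16 CCD libraries labelled with the 3 h time were taken, of 56 samples in the series, 8 from UUO and 8 from sham. Each arm holds 4 numbered replicates with 2 libraries per number, and the libraries of a number were averaged, so the comparison is 4 against 4. Of 32883 gene identifiers in the table, 10530 reached 1 TPM, a share of transcripts scaled for gene length and library size, in at least 4 of the 8 replicates and were tested. The series followed the early hours after ureteral ligation in CCD and in the cortical thick ascending limb (cTAL), and the 8 cTAL libraries of the same table serve here only to show where CCD differs. The animals were male Sprague-Dawley rats, an outbred laboratory stock, and the labels name no genetic change, drug or age. In the UUO arm the left ureter was freed and tied close to the renal pelvis under anaesthesia, and in the sham arm it was freed and not tied. Tubules were dissected by hand, so a library is bulk RNA of a few tubule pieces, in which fewer cells of a type and less RNA per cell cannot be told apart. The labels do not say which libraries share an animal or how many animals went into a library, and p-values therefore measure the spread between the numbered replicates.

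The collecting duct sets the final volume and composition of urine. Its principal cells take up water through the channel aquaporin-2, which vasopressin drives into the apical membrane through its receptor and cyclic AMP, and they exchange sodium for potassium under the control of aldosterone. Intercalated cells between them secrete acid or base. After ureteral obstruction the duct lies directly upstream of the block, and a loss of aquaporin-2 and of urine concentration is a known feature of obstructed kidneys.

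Marker genes fitted the labelled segment. In the sham replicates the 8 principal cell markers summed to between 15907 and 18653 TPM, and all 8 were detected. The sum was 5503 to 10052 TPM in UUO, below every sham replicate. Most of it came from Aqp2 and Aqp3, at 9681 to 11320 and 3216 to 4003 TPM in sham, so its fall largely repeats theirs. Distal convoluted or connecting tubule markers, nearly all Calb1, summed to 329 to 864 TPM in sham. In UUO replicates 1 to 4 they summed to 1253, 152, 566 and 272 TPM. TPM keep no record of sequencing depth, so depth is unknown, and the libraries held 9813 to 10750 genes at 1 TPM or more. Over 5000 TPM of uromodulin (Umod), the main product of cTAL, were found in 3 libraries, namely 6941 in library 1 of sham replicate 1, 7957 in library 1 of sham replicate 3 and 18230 in library 2 of UUO replicate 4. Transcripts of other cells also moved with the arm. The 9 proximal tubule markers summed to 114 to 453 TPM in sham and to 2402, 2116, 392 and 1182 TPM in UUO replicates 1 to 4. Of these markers Pck1 rose by 2.89 on the log2 scale and Gsta2 by 2.80, and Lrp2, the endocytic receptor that defines these cells, was at 0.11 to 0.53 TPM in sham and at 1.09 to 4.82 TPM in UUO. Red cell markers summed to 53.2 to 1223 TPM in sham and to 1512 to 7922 TPM in UUO, with UUO replicate 3 lowest. The 8 macrophage markers ranged from 82.4 to 214 TPM in sham and from 156 to 253 TPM in UUO, with Cd163 at 0 throughout, and the complement gene C1qb rose by 1.79 (SE 0.29, adjusted p = 0.0088). Neutrophil markers stayed at or below 3.19 TPM in sham and reached 3.47 to 41.6 TPM in UUO, with Mpo and Elane at 0. In sham replicates 2 to 4 nearly all of the sum was 1 gene, Ly6g6c, at 2.95, 0.675 and 3.19 TPM. Ly6g6c itself was at 1.09 to 3.65 TPM in UUO (log2 change 0.002, adjusted p = 0.997). Smooth muscle markers summed to at most 5.22 TPM in sham and to 32.6, 8.65, 6.46 and 38.7 TPM in UUO replicates 1 to 4. Of these UUO sums 30.8, 8.59, 5.84 and 37.1 TPM came from 1 gene, Tagln. The part of these transcripts in the changes below was not tested, and their values are repeated beside the gene groups they move with.

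**Figure D1:**
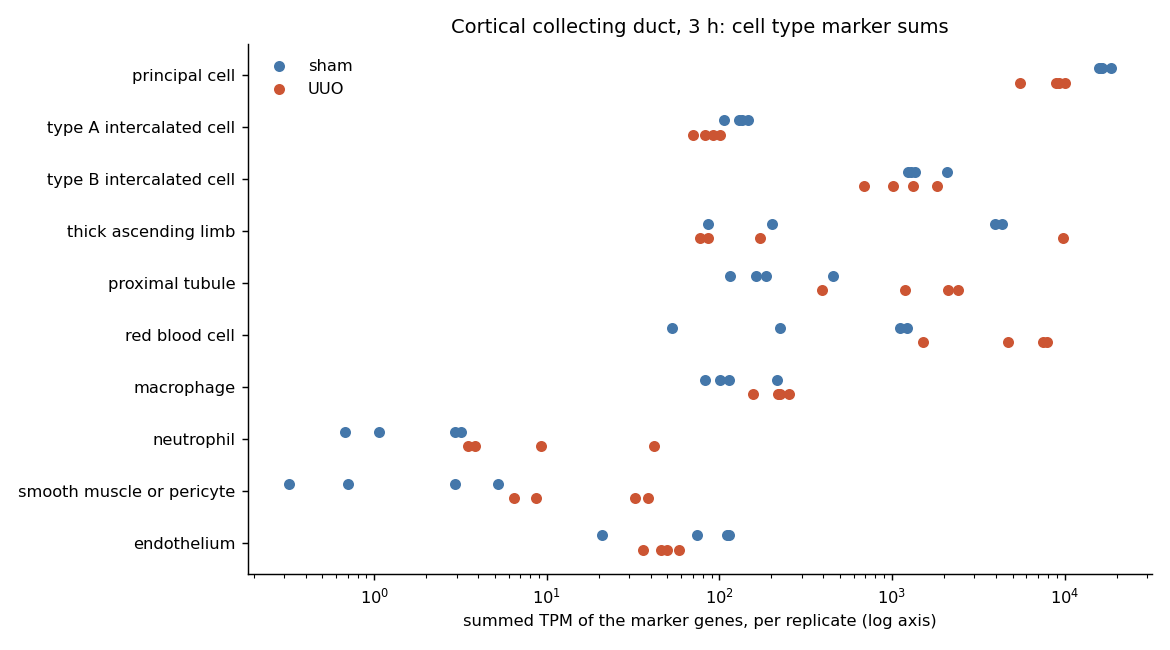
Summed TPM of cell type marker genes in each CCD replicate at 3 h, on a log axis, with 4 sham points (blue) and 4 UUO points (red) per cell type. The principal cell sum, most of which is Aqp2 and Aqp3, is lower in every UUO replicate (5503 to 10052 TPM) than in every sham replicate (15907 to 18653 TPM). The red cell sum is higher in every UUO replicate.

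Obstruction for 3 h was accompanied by changes in 1373 genes, 13.0% of those tested, at an adjusted p under 0.05 in limma's moderated linear model. Of these, 526 (5.0% of the genes tested) were higher and 847 (8.04%) lower in UUO. More rises than falls reached 2-fold: 357 genes rose and 206 fell by 2-fold or more on the log2(TPM + 1) scale, where changes of weakly expressed genes come out too small. The arms did not overlap in 2248 genes (21.3%). The first principal component held 45.0% of the variance and separated the arms. The median of all genes lay at -0.14, and under median-of-ratios rescaling it lay at -0.01, with 710 genes higher and 454 lower. Quantile normalization gave 653 higher and 649 lower. The balance of rises and falls therefore rests on the scale, and each log2 change below is to be read against -0.14. Of the calls, 417 held in all 8 fits that left out 1 replicate, 208 rises and 209 falls, and without sham replicate 2 the counts were 229 higher and 231 lower.

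**Figure D2:**
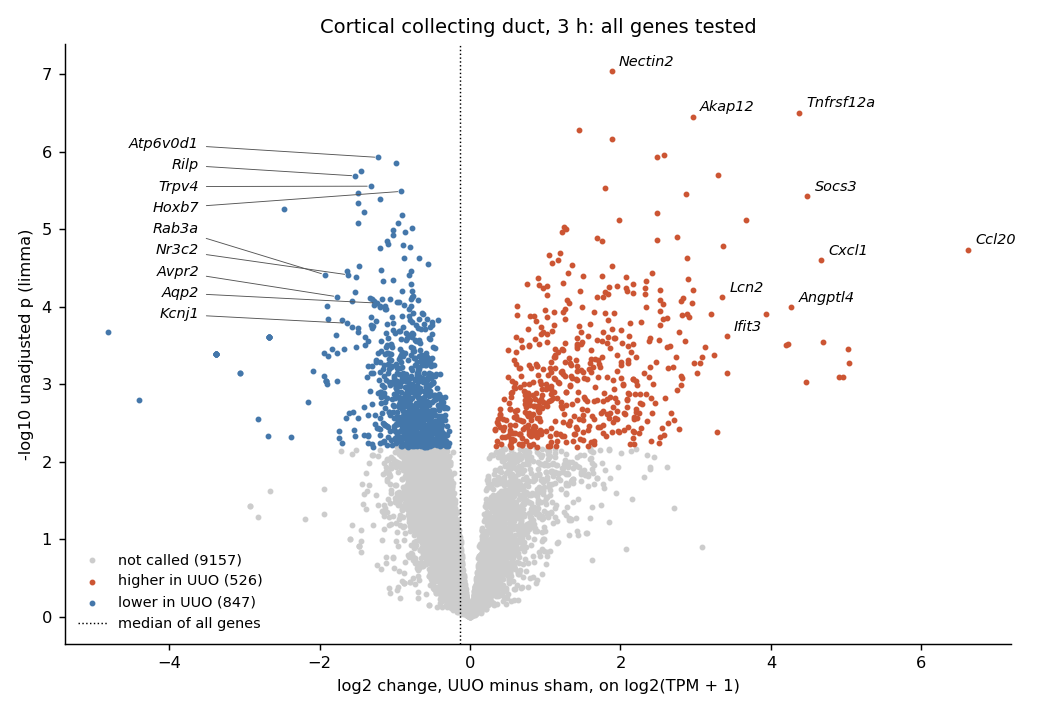
Log2 change (UUO minus sham, x axis) against the negative log10 of the unadjusted limma p (y axis) for the 10530 genes tested in CCD at 3 h. The 526 rises (red) reach 6.62 for Ccl20, while the falls labelled in the plot (blue) lie between -0.91 for Hoxb7 and -1.93 for Rab3a, and the dotted line marks the median of all genes at -0.14.

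The genes of the V2 vasopressin receptor and of the water channels Aqp2 and Aqp3 fell after 3 h of obstruction, while Aqp4 was not called. Aqp2, the apical water channel, stood at 9991, 11320, 9826 and 9681 TPM in sham replicates 1 to 4 and at 4936, 4464, 5808 and 2926 TPM in the UUO replicates. The arms did not overlap, and UUO replicate 4 was lowest. In that replicate Aqp2 was at 3887 TPM in library 1 and at 1965 TPM in library 2, which held 18230 TPM of Umod. The part of thick limb RNA in this value was not tested. The log2 change was -1.24 (SE 0.19, adjusted p = 0.00782), and the two-sided exact permutation test over the 8 replicates gave p = 0.0286, the smallest that 4 against 4 allows. Avpr2, the V2 vasopressin receptor that raises cyclic AMP, fell further. It was at 654, 794, 754 and 860 TPM in sham and at 329, 220, 290 and 128 TPM in UUO, a log2 change of -1.76 (SE 0.27, adjusted p = 0.00762). In UUO replicate 4 it was at 172 TPM in library 1 and at 83.6 TPM in the Umod-rich library 2. Aqp3, the basolateral water channel, was at 3216 to 4003 TPM in sham and at 2888, 2321, 1860 and 1446 TPM in UUO. Its fall of 0.78 passed (SE 0.20, adjusted p = 0.0320), but 6 of the 8 fits that left out 1 replicate lost the call, with an adjusted p of up to 0.0905 without sham replicate 2. Aqp4, the other basolateral water channel, had overlapping arms at 18.4 to 34.9 TPM in sham and 14.4 to 41.0 TPM in UUO (log2 change -0.01, adjusted p = 0.985).

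The Aqp2 promoter is shown because this gene fell from the highest levels of the genes named. It lies on the plus strand at chr7:132590036-132590335 of the rat assembly GRCr8, from 250 bases before to 50 bases after the RefSeq start. Capitals mark the cyclic AMP response element core TGACGT, here as ACGTCA on the other strand, and the GATA motif AGATAA, here as TTATCT.
Aqp2: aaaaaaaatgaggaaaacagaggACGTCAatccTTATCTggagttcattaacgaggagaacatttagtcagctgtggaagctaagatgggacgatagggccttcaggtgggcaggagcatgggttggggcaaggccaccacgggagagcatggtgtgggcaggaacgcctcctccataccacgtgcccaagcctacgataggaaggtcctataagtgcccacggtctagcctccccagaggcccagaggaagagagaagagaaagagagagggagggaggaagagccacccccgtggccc
The core TGACGT occurs on either strand in 7.94% of the 33469 promoters of this length, and AGATAA in 11.58%. Among the promoters of tested genes the shares were 12.07% and 6.12%. A match describes the letters and shows no binding. The GATA factor gene Gata3, expressed in principal cells, was at 61.0 to 76.2 TPM in sham and at 31.7 to 56.7 TPM in UUO. Those arms did not overlap, but the change of -0.62 did not pass (SE 0.18, adjusted p = 0.0533).

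The rest of the vasopressin pathway was read from a list. Members of this list and of those below were chosen with earlier results of these data known. Their medians and shares called therefore describe the lists and do not test a response. Of 41 genes on the list for the receptor, G proteins, cyclic AMP enzymes and CREB factors, 25 were tested, of which 1 rose, 2 fell and 22 did not pass, with a median log2 change of -0.04 against -0.14 for all genes. The share called, 12%, was near the 13.0% over all genes. The riser was Akap12, a scaffold that holds protein kinase A and the beta-adrenergic receptor. It was at 0.645, 0.465, 0.32 and 0.095 TPM in sham and at 7.89, 8.30, 9.27 and 17.1 TPM in UUO (log2 change 2.96, SE 0.25, adjusted p = 0.00124). Every UUO replicate was above every sham replicate. Pde4a, a phosphodiesterase that breaks down cyclic AMP, fell by 1.20 (SE 0.24, adjusted p = 0.0167), from 3.67 to 6.54 TPM in sham to 1.01 to 2.33 TPM in UUO. Without sham replicate 2 its adjusted p was 0.0537. Adcy6, the main cyclase behind the V2 receptor in mice, was at 1.74 to 3.71 TPM in sham and at 1.46 to 2.00 TPM in UUO (log2 change -0.43, adjusted p = 0.192).

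Among 35 genes tied to the trafficking and turnover of aquaporin-2, 32 were tested, and 15.6% of these were called, near the 13.0% over all genes. Besides Aqp2 and Aqp3, Stxbp2 fell by 0.42, and Anxa2 and Vamp3 rose by 0.76 and 0.53, while 27 members did not pass and the median was -0.09. Vamp3, a vesicle SNARE, went from 56.7 to 64.0 TPM in sham to 74.5 to 104 TPM in UUO. Anxa2, a membrane-binding annexin found on aquaporin-2 vesicles, went from 268 to 323 TPM to between 361 and 694 TPM. The arms did not overlap in either gene. Each of these calls was lost in at least 5 of 8 fits without 1 replicate, with an adjusted p of up to 0.0943 for Vamp3 and 0.104 for Stxbp2 without sham replicate 2, and 0.0602 for Anxa2 without sham replicate 3. Under median-of-ratios rescaling Stxbp2 was no longer called and 4 members were called higher. Only the fall of Aqp2 held in all 8 fits on this list. Rab3a, a small GTPase of regulated exocytosis named as 1 of the largest falls, went from 19.0 to 24.6 TPM in sham to 8.69, 3.44, 6.56 and 3.30 TPM in UUO (log2 change -1.93, SE 0.27, adjusted p = 0.00622).

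Among sodium and potassium transport genes the largest falls were those of Nr3c2 and Kcnj1. Nr3c2, the mineralocorticoid receptor through which aldosterone acts, was at 7.39, 7.38, 7.49 and 5.87 TPM in sham and at 2.53, 1.73, 0.845 and 1.77 TPM in UUO. The arms stood well apart, at a log2 change of -1.62 (SE 0.23, adjusted p = 0.00622). Kcnj1, the ROMK channel that secretes potassium, was at 737, 619, 804 and 444 TPM in sham and at 337, 139, 161 and 236 TPM in UUO (log2 change -1.64, SE 0.28, adjusted p = 0.00973). These 2 falls held in all 8 fits without 1 replicate. The beta and gamma subunits of the epithelial sodium channel fell less. Scnn1b was at 353, 374, 397 and 418 TPM in sham and at 281, 273, 258 and 152 TPM in UUO (log2 change -0.73, adjusted p = 0.0387). Scnn1g was at 415 to 560 TPM in sham and at 400, 346, 309 and 199 TPM in UUO (log2 change -0.73, adjusted p = 0.0432). UUO replicate 4, whose library 2 held 18230 TPM of Umod, was lowest for both subunits. The part of thick limb RNA in these 2 values was not tested. Both calls were lost after median-of-ratios rescaling (adjusted p = 0.0739 and 0.0782) and in at least 5 of 8 fits without 1 replicate, with an adjusted p of up to 0.0941 for Scnn1b without sham replicate 4 and 0.110 for Scnn1g without sham replicate 2. The alpha subunit Scnn1a, at 15.8 to 33.8 TPM in sham and 26.8 to 42.4 TPM in UUO, overlapped between arms (log2 change 0.53, adjusted p = 0.151).

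Tsc22d3, which encodes the glucocorticoid-induced protein GILZ, rose by 0.92 from 39.0 to 50.1 TPM in sham to 49.98 to 119 TPM in UUO, where UUO replicate 3 lay level with the highest sham. Usp2, a deubiquitinase induced by aldosterone in mice, rose by 0.84, and Fkbp5, a chaperone of steroid receptors, rose by 0.88 from 2.28 to 3.38 TPM to between 4.75 and 7.02 TPM. These 3 calls were lost in 4 or 5 of 8 fits without 1 replicate, with an adjusted p of up to 0.0709, 0.0641 and 0.0653 without sham replicate 2. Sgk1, the kinase that keeps sodium channels at the membrane, was spread over 200.1 to 947 TPM in sham and stood at 581 to 903 TPM in UUO (log2 change 0.61, adjusted p = 0.328). Hsd11b2, which inactivates corticosterone, was at 230.1 to 387 TPM in sham and at 159, 167, 263 and 84.7 TPM in UUO. Its arms overlapped through UUO replicate 3 and the change of -0.98 did not pass (SE 0.31, adjusted p = 0.0639). In all, 19 of 26 genes of this list were tested, 3 rose, 4 fell and 12 did not pass, with a median of -0.06. Called members made up 36.8%, against 13.0% over all genes.

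**Figure D3:**
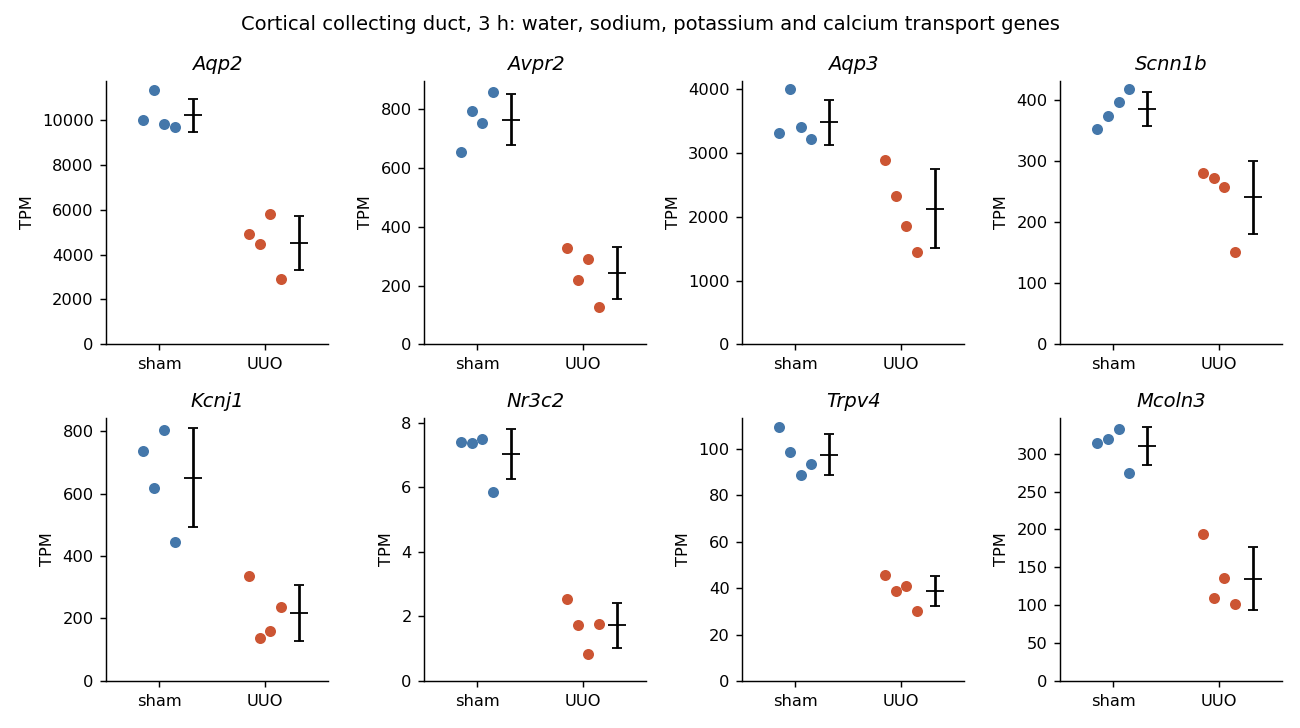
TPM of 8 transport genes in each CCD replicate at 3 h, with 4 sham points (blue) and 4 UUO points (red) and the mean ± SD beside them. The axes are linear from 0, and in every panel all UUO points lie below all sham points. Transport genes with overlapping arms, such as Aqp4, Scnn1a, Sgk1 and Hsd11b2, are not shown.

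Trpv4, a channel opened by flow and swelling, was at 110, 98.5, 88.8 and 93.5 TPM in sham and at 45.6, 39.0, 40.8 and 30.3 TPM in UUO. The log2 change was -1.32 (SE 0.14, adjusted p = 0.00218), with narrow spread in both arms. Mcoln3, an endolysosomal calcium channel chosen after its values were seen, was at 275 to 333 TPM in sham and at 193, 110, 136 and 101 TPM in UUO (log2 change -1.27, SE 0.20, adjusted p = 0.00762). Of 37 genes for mechanosensing and purinergic signalling, 17 were tested, 1 rose and 2 fell, which is 17.6% called against 13.0% over all genes. The others called were F2rl1, the protease-activated receptor 2, which rose by 1.02, and Nt5e, the ectoenzyme that makes adenosine, which fell by 0.75. The call of F2rl1 was lost in 4 of 8 fits without 1 replicate, up to an adjusted p of 0.0533 without sham replicate 2. That of Nt5e was lost in 5, up to 0.0716 without sham replicate 4, and after rescaling (adjusted p = 0.0578).

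Genes of local signals that act on the duct were called at a share near that of all genes, 16.7% against 13.0%. Of 26 genes listed for prostaglandins and other local signals 12 were tested, of which Ptgs1 and Ptges fell and none rose. Those tested were prostaglandin genes, Agtr1a, Atp6ap2 and Avpr1a, so no natriuretic peptide or endothelin gene was tested on this list. Ptgs1, the constitutive cyclooxygenase, went from 82.5 to 95.1 TPM in sham to 36.5 to 69.0 TPM in UUO (log2 change -0.79, adjusted p = 0.0267). Ptges, the prostaglandin E synthase, fell by 0.42 and was lost after rescaling (adjusted p = 0.167). Either call was lost in at least 5 of 8 fits without 1 replicate, up to an adjusted p of 0.0762 for Ptgs1 without sham replicate 2 and 0.0869 for Ptges without UUO replicate 2. Outside the list, Edn3, the gene of endothelin-3 and 1 of the 10 largest falls, was at 11.2, 16.3, 13.3 and 13.3 TPM in sham and at 2.39, 6.02, 2.94 and 1.49 TPM in UUO. The log2 change of Edn3 was -1.89 (SE 0.31, adjusted p = 0.00927), and arms without overlap were a condition for entering that group. Npy, the gene of neuropeptide Y chosen after its values were seen, rose from 0 to 2.61 TPM in sham to 7.0 to 25.5 TPM in UUO (log2 change 2.57, SE 0.43, adjusted p = 0.00927).

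Intercalated cell genes gave no call that held in all 8 fits. Of 28 listed genes 25 were tested, none rose, 2 fell and 23 did not pass, with a median of -0.25. The share that fell, 8%, was near the 8.04% over all genes. Of all 1373 calls 417 held in all 8 fits. Rhbg, the basolateral ammonia channel, was at 2264 to 2910 TPM in sham and at 1613, 1766, 2172 and 1450 TPM in UUO (log2 change -0.56, adjusted p = 0.0307). Adgrf5, an adhesion receptor of acid-secreting cells, fell by 0.61 with an adjusted p of 0.0498. Both calls were lost in at least 5 of 8 fits, up to an adjusted p of 0.0892 and 0.131 without sham replicate 2. After median-of-ratios rescaling no gene of this list was called. Slc26a4, the apical anion exchanger pendrin, ranged from 309 to 559 TPM in sham and from 253 to 801 TPM in UUO (log2 change 0.06, adjusted p = 0.932). Slc4a1, the basolateral exchanger AE1, had a change of -0.58 (adjusted p = 0.0893). The factor Foxi1, at 351 to 407 TPM in sham and 323 to 426 TPM in UUO, overlapped between arms. The 5 markers of type A intercalated cells summed to 106 to 146 TPM in sham and to 70.4 to 101 TPM in UUO, without overlap, and the part of cell number in these values was not tested.

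The proton pump subunit Atp6v0d1, which is found in many cell types and was chosen after its values were seen, fell more. It was at 1081, 1156, 1271 and 1327 TPM in sham and at 584, 480, 578 and 442 TPM in UUO. The log2 change was -1.22 (SE 0.12, adjusted p = 0.00156), and the arms were far apart. Atp6v1g2, another subunit chosen in this way, fell by 1.49 from 8.47 to 11.04 TPM in sham to 2.32 to 3.68 TPM in UUO (SE 0.18, adjusted p = 0.00315).

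Chemokine genes led the named rises. Ccl20, which attracts cells bearing the receptor CCR6, was at 0.575, 10.8, 1.28 and 2.32 TPM in sham and at 63.7, 350, 707 and 869 TPM in UUO. UUO replicate 1 was lowest but still above every sham replicate, and the log2 change was 6.62 (SE 0.86, adjusted p = 0.00424). Cxcl1, which attracts neutrophils, was at most 0.455 TPM in sham and at 5.52, 41.6, 55.0 and 68.4 TPM in UUO (log2 change 4.66, SE 0.62, adjusted p = 0.00501). UUO replicate 1 was again the lowest of its arm. The monocyte chemokine Ccl2 was at 0 to 0.35 TPM in sham and at 5.39, 16.5, 7.67 and 16.3 TPM in UUO (log2 change 3.30, SE 0.33, adjusted p = 0.0018). Cxcl10, induced by interferon, rose by 3.21 from 3.53 to 15.9 TPM to between 26.8 and 143 TPM. Cxcl16, a membrane-bound ligand of CXCR6, rose by 1.89 from 26.9 to 61.1 TPM to between 95.8 and 247 TPM. Csf3, the gene of the granulocyte growth factor, was at 0.735 TPM in UUO replicate 1, within the sham range of 0.23 to 1.31 TPM, and at 32.4 to 49.8 TPM in the other 3, so its rise of 3.28 was lost in 7 of 8 fits without 1 replicate (adjusted p up to 0.0997 without UUO replicate 2). Ccl28, an epithelial chemokine, fell by 0.87 from 25.8 to 34.8 TPM to between 14.8 and 18.7 TPM (SE 0.14, adjusted p = 0.00807). Of 40 listed chemokines and cytokines 20 were tested, and 8 rose, 1 fell and 11 did not pass. The median was 0.81 against -0.14 for all genes, and 45% were called against 13.0%. Genes under 1 TPM in every sham replicate, such as Ccl2 and Cxcl1, passed the filter only through the UUO arm. The filter thus favours rises among such genes, here and on other lists, and the median and share do not test a response. In all 8 fits 5 rises and the fall of Ccl28 held.

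The neutrophil marker sum was higher in every UUO replicate, but in UUO replicates 2 and 3, at 3.47 and 3.82 TPM, only just above the highest sham, 3.19 TPM. The macrophage sums of the arms overlapped, and lymphocyte markers summed to 4.87 to 11.2 TPM in sham and to 4.00 to 7.04 TPM in UUO. UUO replicate 4 had 41.6 TPM of neutrophil markers and 869 TPM of Ccl20, whereas UUO replicate 3, with 3.82 TPM of neutrophil markers and the lowest proximal tubule and red cell sums of its arm, had 707 TPM of Ccl20. UUO replicate 1 had 9.25 TPM of neutrophil markers and the highest macrophage sum, 253 TPM, and the lowest Ccl20 of the arm. Their part in the chemokine values was not tested.

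Genes of the NF-kB pathway, which carries signals of tumour necrosis factor family receptors to the nucleus, rose where they were called. Of 42 listed, 31 were tested, 10 rose, none fell and 21 did not pass, with a median of 0.62. That is 32.3% called, against 13.0% over all genes, and 8 of the rises held in all 8 fits. Tnfrsf12a, the receptor Fn14 for the cytokine TWEAK, was at 45.8, 42.8, 39.4 and 33.2 TPM in sham and at 340, 1041, 1244 and 1128 TPM in UUO. The rise of 4.37 (SE 0.36, adjusted p = 0.00124) was seen in every library, of which the lowest in UUO had 339 TPM and the highest in sham 60.9 TPM. Among the inhibitors that the pathway itself induces, Nfkbia was at 80.8, 116, 74.1 and 94.6 TPM in sham and at 142, 189, 246 and 304 TPM in UUO (log2 change 1.23, SE 0.23, adjusted p = 0.0126). The related genes Nfkbie, Nfkbiz and Bcl3, not all of which act as inhibitors, rose by 0.95, 1.13 and 1.77. The calls of Nfkbie and Bcl3 were lost in 5 and 4 of 8 fits, up to an adjusted p of 0.0716 without UUO replicate 2 and 0.0675 without sham replicate 2. Birc3, an inhibitor of cell death, rose by 2.57 from 4.40 to 6.85 TPM to between 15.1 and 79.0 TPM. Icam1, to which leukocytes adhere, rose by 2.88 from 3.56 to 7.33 TPM to between 20.2 and 85.2 TPM. Of the subunits, Relb rose by 1.69 (SE 0.30, adjusted p = 0.0114) while Rela, at 36.8 to 42.4 TPM in sham and 26.6 to 37.2 TPM in UUO, did not pass (log2 change -0.22, adjusted p = 0.284).

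The promoters of Ccl20, Cxcl1 and Nfkbia are shown because these genes rose and their windows hold the NF-kB consensus. They lie at chr9:91836909-91837208 on the plus strand, chr14:17479272-17479571 on the minus strand and chr6:78597023-78597322 on the minus strand of GRCr8 in RefSeq. Each is printed in the direction of transcription, with matches to the consensus on either strand in capitals, which overlap in Cxcl1.
Ccl20: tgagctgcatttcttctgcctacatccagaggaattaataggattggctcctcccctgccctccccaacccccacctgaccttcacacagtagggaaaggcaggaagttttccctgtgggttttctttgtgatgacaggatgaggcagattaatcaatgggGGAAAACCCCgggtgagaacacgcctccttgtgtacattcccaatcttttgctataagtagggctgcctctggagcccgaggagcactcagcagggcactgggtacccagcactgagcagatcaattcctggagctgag
Cxcl1: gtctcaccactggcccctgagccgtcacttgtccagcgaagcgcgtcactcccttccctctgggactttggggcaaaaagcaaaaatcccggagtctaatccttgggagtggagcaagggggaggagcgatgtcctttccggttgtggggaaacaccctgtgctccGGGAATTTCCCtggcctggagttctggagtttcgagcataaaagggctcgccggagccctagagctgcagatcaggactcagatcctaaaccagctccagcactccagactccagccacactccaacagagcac
Nfkbia: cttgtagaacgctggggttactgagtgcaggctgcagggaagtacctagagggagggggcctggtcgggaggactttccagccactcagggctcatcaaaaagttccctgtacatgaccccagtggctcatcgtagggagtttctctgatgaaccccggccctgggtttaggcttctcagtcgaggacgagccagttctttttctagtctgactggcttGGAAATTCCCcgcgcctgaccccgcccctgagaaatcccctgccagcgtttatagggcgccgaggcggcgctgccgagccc
The match starts 89 bases upstream of the start in Ccl20, 84 in Cxcl1 and 31 in Nfkbia. Of the genes on the chemokine and NF-kB lists that rose, 14 had a promoter entry and 10 of these held the consensus, while 7.51% of all promoters and 9.71% of the promoters of tested genes did. Across all genes called higher the share was 11.59%, and across those called lower 9.01%. These shares describe letters in a window, and Tnfrsf12a and Icam1, which rose, are among the 14 and had no match. List members that did not rise were not counted, and the NF-kB list holds known targets of the pathway. The 10 of 14 therefore cannot bear on the response to obstruction.

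Signalling through gp130-type cytokine receptors is held in check by Socs3, a feedback inhibitor that STAT3 induces. Socs3 was at 3.34, 0.82, 1.33 and 5.79 TPM in sham and at 26.6, 71.6, 87.9 and 99.8 TPM in UUO (log2 change 4.48, SE 0.48, adjusted p = 0.00219). No library overlapped between arms. On the JAK-STAT list, 21 of 29 genes were tested, 3 rose, 1 fell and 17 did not pass, at a median of 0.07. Calls reached 19%, against 13.0% over all genes. Osmr, the oncostatin M receptor, rose by 1.89 and Ptpn2, a phosphatase of JAK kinases, by 0.53, while Il17re, a receptor subunit for interleukin-17C, fell by 1.53. These 3 calls were lost in at least 6 of 8 fits without 1 replicate, with adjusted p-values of up to 0.0892, 0.0996 and 0.110 without sham replicate 2. Stat3 itself was at 20.0 ± 5.61 TPM (SD, n = 4) in sham and 21.0 ± 7.29 TPM (n = 4) in UUO.

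**Figure D4:**
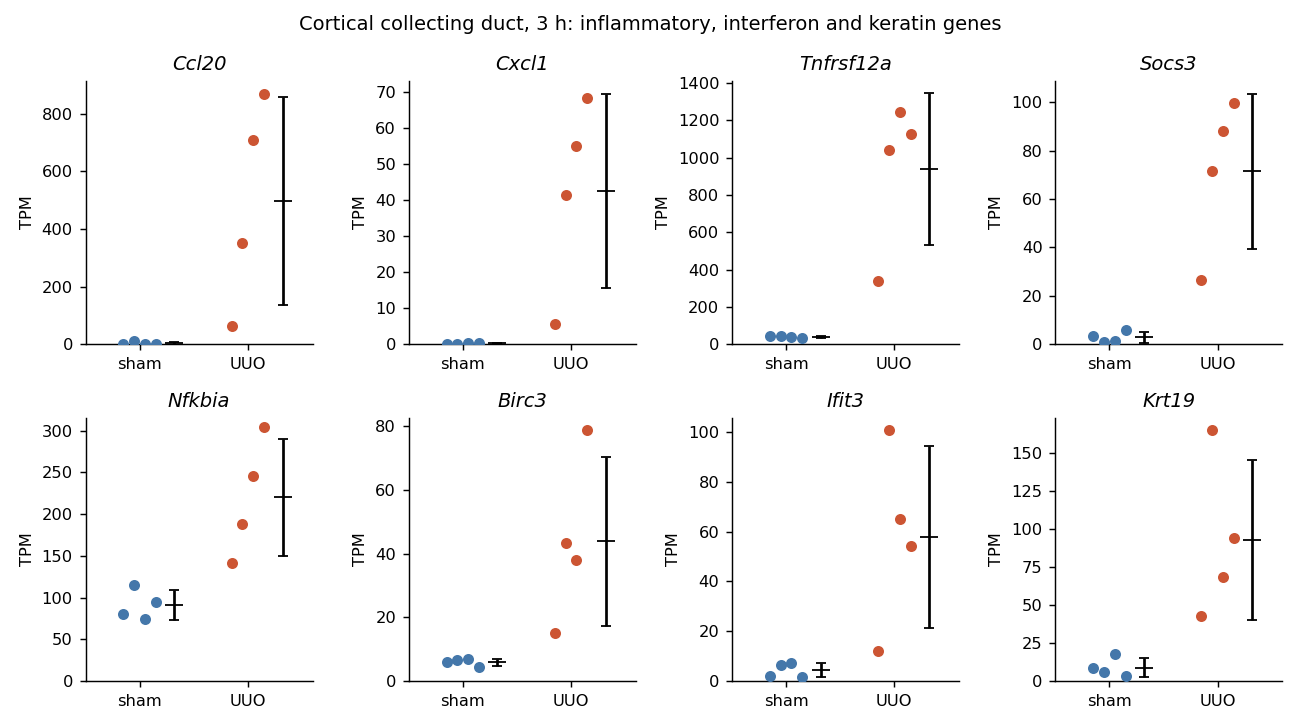
TPM of 8 genes that rose in CCD at 3 h, in each replicate, with 4 sham points (blue) and 4 UUO points (red) and the mean ± SD beside them, on linear axes from 0. All UUO points lie above all sham points in every panel, and UUO replicate 1, the leftmost red point, is the lowest of its arm. Genes that rose with overlapping arms, such as Csf3 and Atf3, are not shown.

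Interferon-stimulated genes rose in part. Ifit3, an antiviral protein that interferon induces, was at 2.08, 6.56, 7.14 and 1.65 TPM in sham and at 12.0, 101, 65.1 and 54.1 TPM in UUO (log2 change 3.41, SE 0.61, adjusted p = 0.0111). Its relative Ifit2 rose by 2.90 from 1.07 to 3.28 TPM to between 7.32 and 28.5 TPM (SE 0.42, adjusted p = 0.00645). Oasl, another antiviral gene, rose by 2.41 from 0.76 to 4.31 TPM to between 9.01 and 17.3 TPM (SE 0.34, adjusted p = 0.00612). Irf1, a transcription factor that interferon-gamma and NF-kB induce, rose by 2.33 from 12.7 to 18.9 TPM to 46.2, 95.8, 73.4 and 178 TPM. None of these genes overlapped between arms. Of 42 genes on the interferon and antigen presentation list 34 were tested, 6 rose, 1 fell and 27 did not pass. The median was 0.23, with 20.6% called against 13.0% over all genes, and 4 of the rises held in all 8 fits. The fall was that of Ifi35, by 0.52, lost after rescaling (adjusted p = 0.0972). Ubd, a ubiquitin-like modifier induced by inflammatory cytokines and 1 of the 10 largest rises, was at 0.835 to 2.20 TPM in sham and at 20.8, 14.4, 29.4 and 71.9 TPM in UUO (log2 change 3.66, SE 0.43, adjusted p = 0.00308).

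The Ifit3 promoter, on the plus strand at chr1:241527076-241527375 of GRCr8, is shown for the core of the interferon-stimulated response element, which is GAAA, any 2 bases and GAAA. Capitals mark it here, on the other strand.
Ifit3: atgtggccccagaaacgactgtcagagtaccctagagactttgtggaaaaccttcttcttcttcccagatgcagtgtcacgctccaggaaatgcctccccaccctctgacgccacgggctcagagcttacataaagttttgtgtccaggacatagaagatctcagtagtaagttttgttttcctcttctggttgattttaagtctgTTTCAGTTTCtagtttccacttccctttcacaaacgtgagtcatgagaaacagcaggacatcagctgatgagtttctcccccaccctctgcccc
This core begins 44 bases upstream of the start and is present in 3.92% of all promoters of this length and in 2.96% of those of tested genes.

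Of the immediate early genes, Fos, Jun, Junb and Egr1 were not called, while Myc, Klf10 and Mafk were among 10 that rose. Fos was at 175, 316, 168 and 757 TPM in sham and at 266, 518, 555 and 385 TPM in UUO (log2 change 0.54, adjusted p = 0.436). Sham replicate 4 was the highest of all 8. In cTAL the sham levels were lower, at 2.10 to 26.1 TPM for Fos. Junb was at 270 to 648 TPM in CCD sham and at 7.23 to 31.2 TPM in cTAL sham. How the high sham level in CCD bears on the missing calls was not tested. Jun, Junb and Egr1 had log2 changes of -0.18, -0.13 and -0.06, with overlapping arms and adjusted p-values of 0.715, 0.847 and 0.945. Atf3, a stress-induced repressor, was at 1.40, 4.83, 3.02 and 26.2 TPM in sham and at 16.4 to 62.7 TPM in UUO, so its rise of 2.52 passed with overlap (adjusted p = 0.0424) and was lost in 6 of 8 fits, with an adjusted p of 0.103 without UUO replicate 4. Myc was far more uniform. It stood at 0.635 to 1.62 TPM in sham and at 10.5, 13.5, 13.1 and 27.3 TPM in UUO (log2 change 2.87, SE 0.31, adjusted p = 0.00218). Klf10, a zinc finger factor, rose by 1.24 from 17.2 to 31.9 TPM to between 45.0 and 68.9 TPM, and Mafk, a partner of NRF2, by 1.27 from 9.64 to 12.1 TPM to between 24.5 and 35.1 TPM. Ier3 rose by 1.40 and Zfp36, which destabilizes cytokine transcripts, by 1.37. Sham replicate 4 was the highest of its arm for both, and their calls were lost in 2 and 6 of 8 fits, up to an adjusted p of 0.0556 without sham replicate 2 and 0.113 without UUO replicate 2. Of 39 listed genes 24 were tested, 10 rose, none fell and 14 did not pass, at a median of 0.67. This is 41.7% called, against 13.0% over all genes. Only the rises of Myc, Klf10 and Mafk held in all 8 fits, and without the libraries rich in Umod 7 rose.

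Some ligands and feedback genes of the EGF receptor family rose, and Egfr itself was not called. Hbegf, a ligand shed from epithelial cells, was at 6.97, 6.55, 6.18 and 6.03 TPM in sham and at 15.8, 87.6, 83.0 and 60.2 TPM in UUO (log2 change 2.81, SE 0.46, adjusted p = 0.00894). Nrg1, the ligand of ERBB3, rose by 1.70 from 0.86 to 2.15 TPM to between 3.54 and 10.9 TPM. Errfi1, which inhibits the receptor, rose by 2.17 from 4.995 to 14.7 TPM to 51.9, 59.5, 24.2 and 57.2 TPM. Gadd45b and Gadd45g, which couple stress to MAP kinases, rose by 2.08 and 1.42, and Gadd45g reached 1434 and 1479 TPM in UUO replicates 3 and 4 from 361 to 445 TPM in sham. Dusp6, a phosphatase of ERK, rose by 2.18, lost in 5 of 8 fits with an adjusted p of up to 0.0903 without sham replicate 2. Egfr was at 2.16 ± 0.248 TPM (SD, n = 4) in sham and 2.36 ± 0.581 TPM (n = 4) in UUO and was not called. Of 46 listed genes 32 were tested, 9 rose, none fell and 23 did not pass, at a median of 0.15. Calls made up 28.1%, against 13.0% over all genes, and 5 rises held in all 8 fits.

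Markers of epithelial injury formed the list with the highest median, 1.14. Of 39 genes 32 were tested, 17 rose, none fell and 15 did not pass, which is 53.1% called against 13.0% over all genes. Since the list was chosen with earlier results of these data known, this share does not test a response. Without 1 replicate 9 rises held in all 8 fits. Lcn2, which encodes the urinary injury marker NGAL, was at 2.11, 2.65, 2.22 and 2.93 TPM in sham and at 10.8, 36.3, 32.5 and 96.9 TPM in UUO (log2 change 3.35, SE 0.51, adjusted p = 0.00762). The keratins of simple epithelia rose at high levels: Krt18 went from 660 to 1129 TPM in sham to 2142, 2784, 5404 and 3120 TPM in UUO (log2 change 1.77, SE 0.27, adjusted p = 0.00762). Krt8, its partner in filaments, rose by 1.80 from 305 to 394 TPM to between 863 and 1715 TPM. Krt19 was at 8.55, 5.73, 17.8 and 2.96 TPM in sham and at 42.9, 165, 68.5 and 94.0 TPM in UUO (log2 change 3.37, SE 0.43, adjusted p = 0.00405). Sfn, the epithelial 14-3-3 sigma and 1 of the 10 largest rises, was at 1.39 to 9.59 TPM in sham and at 16, 90.02, 105 and 379 TPM in UUO (log2 change 4.20, SE 0.77, adjusted p = 0.012). Havcr1, the proximal injury marker KIM-1, did not pass the filter on low values and was not tested.

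Matrix and protease genes were called mostly higher. Of 43 listed genes 27 were tested, 7 rose, 1 fell and 19 did not pass, with a median of 0.30. This list had 29.6% called, against 13.0% over all genes. Plaur, the urokinase receptor, rose by 2.81 from 1.06 to 1.76 TPM to 4.93, 33.6, 19.1 and 19.1 TPM (SE 0.44, adjusted p = 0.00762). Plat, tissue plasminogen activator, rose by 2.53 from 0.775 to 5.65 TPM to between 15.5 and 26.01 TPM. The matricellular genes Ctgf and Cyr61, targets of the YAP and SRF factors, rose by 2.48 and 1.75. Ctgf was at 3.29, 2.89, 1.77 and 2.02 TPM in sham and at 17.6, 18.1, 15.3 and 25.5 TPM in UUO (SE 0.23, adjusted p = 0.00156). Timp1, a protease inhibitor, rose by 2.09 with a call lost in 4 of 8 fits, up to an adjusted p of 0.0624 without UUO replicate 2. On the TGF-beta and BMP list 21 of 35 genes were tested and 1 (4.76%) was called, the corepressor Tgif1. It rose by 1.84 from 7.90 to 10.8 TPM to between 19.3 and 47.4 TPM. On the Wnt and Notch list 11 of 38 were tested and 18.2% called, namely the receptors Fzd1 and Fzd4, which fell by 0.70 and 0.74. Both were lost in at least 5 of 8 fits, up to an adjusted p of 0.0908 and 0.135 without sham replicate 2. Fzd4 was also lost after rescaling (adjusted p = 0.0978).

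Junction genes changed in both directions. Nectin2, an adhesion molecule of adherens junctions, had the smallest adjusted p of the genes named here. It was at 99.6, 116, 107 and 128 TPM in sham and at 338, 502, 456 and 398 TPM in UUO (log2 change 1.89, SE 0.13, adjusted p = 0.000964). Every UUO replicate was above 300 TPM. Cldn4, a claudin that shapes chloride permeability in the collecting duct, rose by 2.34 from 71.2 to 121 TPM to 214, 686, 638 and 458 TPM (SE 0.34, adjusted p = 0.00658). Cldn3 went from 69.2 to 133 TPM in sham to between 206 and 275 TPM in UUO and Ocln rose by 0.92, both called and without overlap between arms. Cldn2, a claudin of leaky proximal epithelia, rose from 0.105 to 0.885 TPM to between 3.30 and 7.32 TPM (log2 change 1.96, SE 0.29, adjusted p = 0.00697), and the proximal tubule marker sums given above moved with it, with their part not tested. Cdh16, the kidney cadherin, fell by 0.63 from 1027 to 1385 TPM to between 701 and 805 TPM (SE 0.10, adjusted p = 0.0088). Of 40 listed genes 35 were tested, 9 rose, 4 fell and 22 did not pass, at a median of 0.21. With 37.1% called, against 13.0% over all genes, 5 rises and 1 fall held in all 8 fits. Lad1, a filament-associated protein of epithelia chosen after its values were seen, fell by 1.02 with hardly any spread in sham, from 76.5 to 80.7 TPM to between 33.5 and 46.7 TPM.

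Among 37 tested cytoskeletal, SRF and YAP genes of 46 listed, 10 rose, 2 fell and 25 did not pass, at a median of 0.20. Of those tested 32.4% were called, against 13.0% over all genes. Rnd1, a small GTPase that loosens actin fibres, was at 2.98, 7.92, 3.31 and 4.22 TPM in sham and at 19.2, 111, 79.9 and 241 TPM in UUO (log2 change 3.94, SE 0.64, adjusted p = 0.0088). UUO replicate 1 was again lowest. Its relative Rnd3 rose by 1.17 and the focal adhesion protein Zyx by 1.09, from 7.26 to 7.79 TPM to between 15.96 and 20.6 TPM. Tubb6, a tubulin isotype, rose by 1.59. The contractile genes Tagln and Tpm2 rose by 3.02 and 1.82, and they were highest in UUO replicates 1 and 4, at 30.8 and 37.1 TPM of Tagln, the replicates with the highest smooth muscle marker sums (32.6 and 38.7 TPM). Tagln is itself on that marker list and makes up most of its sum in every UUO replicate. The calls were lost in 1 and 4 of 8 fits, up to an adjusted p of 0.0533 and 0.0826 without sham replicate 2, and the part of smooth muscle RNA in these 2 values was not tested.

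Many antioxidant and metal-handling genes rose. Of 38 listed 32 were tested, 14 rose, 1 fell and 17 did not pass, at a median of 0.40. Calls came to 46.9%, against 13.0% over all genes, and 8 rises held in all 8 fits. The metallothioneins, which bind zinc and copper, rose at high levels: Mt2A was at 1079, 1190, 859 and 1038 TPM in sham and at 4016, 4457, 2531 and 6357 TPM in UUO (log2 change 1.98, SE 0.23, adjusted p = 0.00308). Mt1 and Mt1m each rose by 1.89. UUO replicate 3 was the lowest of its arm for all 3. Of the NRF2 targets, Osgin1 rose by 2.39 to 177, 140, 50.9 and 128 TPM from 7.57 to 32.1 TPM in sham, and Gclc and Gclm, the subunits of the enzyme that limits glutathione synthesis, rose by 2.16 and 1.5. Txnrd1, thioredoxin reductase, rose by 1.36 from 16.2 to 22.1 TPM to 39.8, 45.6, 60.6 and 68.8 TPM (SE 0.19, adjusted p = 0.00538). In contrast to Osgin1, Gclc, Gclm and the metallothioneins, it was higher in UUO replicate 3 than in UUO replicates 1 and 2. Gsta1, Gsta4, Fth1 and Ftl1, which rose by 1.32, 0.74, 0.69 and 0.94, had UUO replicate 3 as the lowest of their arm, as had the proximal tubule and red cell sums, and the part of those cells was not tested. The calls of Gsta4, Fth1 and Ftl1 were lost in 4, 7 and 4 of 8 fits, up to an adjusted p of 0.0718 without UUO replicate 2 and 0.0896 and 0.0703 without sham replicate 2. For Gclc 1 of 8 fits lost the call, with an adjusted p of 0.0557 without sham replicate 2.

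Stress genes were called in both directions. Of 34 tested genes of the unfolded protein, integrated stress and heat shock responses, of 37 listed, 4 rose and 4 fell, at a median of -0.08, and after median-of-ratios rescaling 4 rose and 2 fell. The share called was 23.5% against 13.0% over all genes. Atf4, the factor of the integrated stress response, rose by 0.62 from 94.9 to 113 TPM to between 146 and 181 TPM (SE 0.10, adjusted p = 0.00893). Bag3, a cochaperone, rose by 1.29 from 4.28 to 5.19 TPM to between 11.2 and 18.2 TPM, and Chac1, a glutathione-degrading ATF4 target, rose by 1.33, lost in 3 of 8 fits up to an adjusted p of 0.0531 without sham replicate 4. Hsph1, a large heat shock protein, fell by 1.08 from 21.8 to 31.4 TPM to 17.3, 11.7, 10.8 and 9.28 TPM. Ddit4, which restrains mTOR and is induced by hypoxia and glucocorticoids, fell by 1.31 from 6.26 to 10.7 TPM to between 2.57 and 4.22 TPM (SE 0.22, adjusted p = 0.00985). In apoptosis, p53 and cell cycle genes, 27 of 40 were tested and 7.41% called, where Plk2 rose by 0.74, Sesn1 fell by 0.86 and 25 did not pass. These calls were lost in 6 and 1 of 8 fits, up to an adjusted p of 0.0724 without UUO replicate 2 and 0.0578 without sham replicate 2. After rescaling 4 genes of that list were called higher.

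**Figure D5:**
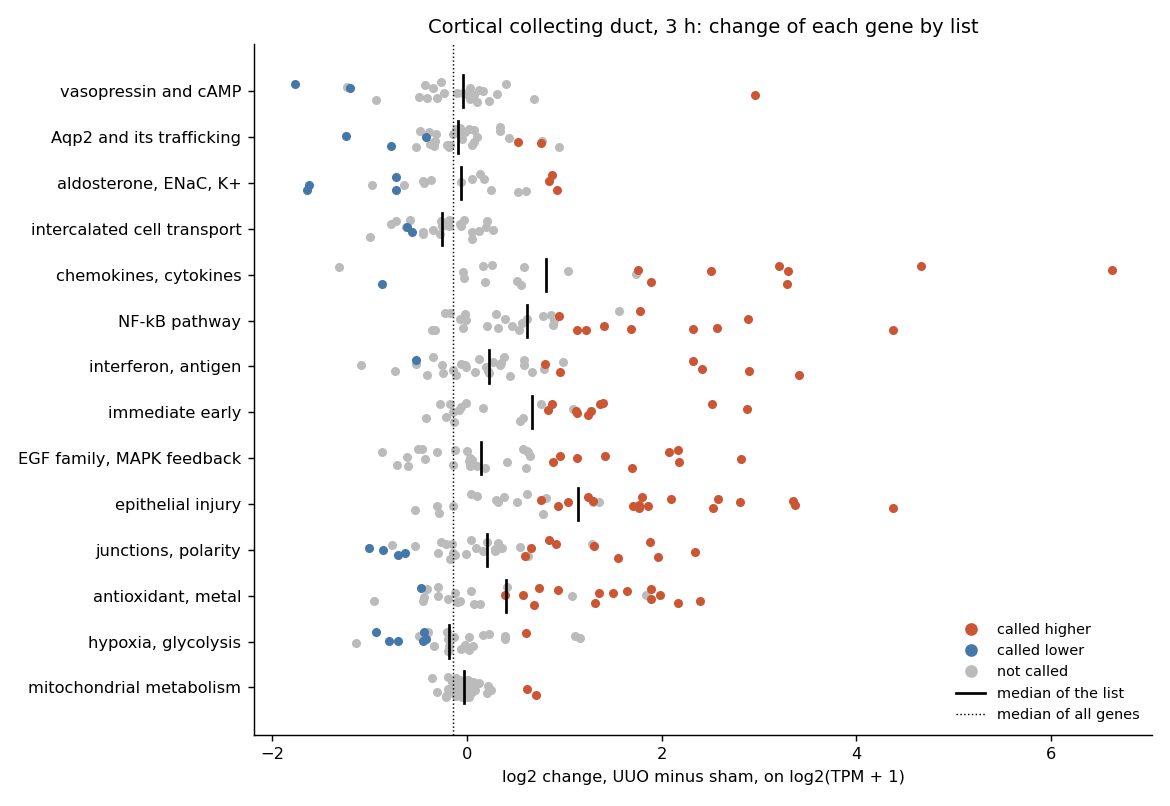
Log2 change (UUO minus sham) of every tested gene on 14 of the gene lists in CCD at 3 h, with called rises in red, called falls in blue and genes that did not pass in grey. Black bars mark the median of each list, from 1.14 for epithelial injury and 0.81 for chemokines to -0.25 for intercalated cell transport, and the dotted line marks the median of all genes at -0.14.

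Genes of glucose metabolism were called more often lower than higher. Of 28 tested genes for hypoxia and glycolysis, of 33 listed, 1 rose, 6 fell and 21 did not pass, at a median of -0.19 against -0.14 for all genes, and the share called was 25% against 13.0%. The falls were Hif1a, the oxygen-regulated factor, by 0.93, the glucose transporter Slc2a1 by 0.80, and the glycolytic genes Pfkm, Gpi, Pkm and Ldha by 0.71, 0.45, 0.42 and 0.44. Slc2a1 went from 74.6 to 96.9 TPM in sham to 69.9, 48.4, 44.5 and 39.5 TPM in UUO. Pfkm was the only fall that held in all 8 fits, and after median-of-ratios rescaling Hif1a, Slc2a1 and Pfkm were the 3 still called. The calls of Slc2a1 and Bnip3 were lost in 3 and 2 of 8 fits, up to an adjusted p of 0.0623 and 0.0609 without sham replicate 2. For Hif1a 6 of 8 fits lost the call, with an adjusted p of up to 0.0969 without sham replicate 2. The riser was Bnip3, a mitophagy receptor that hypoxia induces, at 322 to 376 TPM in sham and 469 to 704 TPM in UUO (log2 change 0.60, SE 0.13, adjusted p = 0.0203). Among 42 tested mitochondrial genes of 46 listed 2 (4.76%) rose, both for fatty acid oxidation, Cpt1a by 0.72 and Acadl by 0.62. The other 40 did not pass, at a median of -0.03. After rescaling 4 were called higher. These 2 calls were lost in 4 and 5 of 8 fits, with an adjusted p of up to 0.0541 and 0.0763 without UUO replicate 2. Within the UUO arm replicate 3 was lowest for both, at 19.5 TPM of Cpt1a and 78.0 TPM of Acadl. It also had the lowest proximal tubule marker sum of that arm, 392 TPM, and the part of those cells was not tested. Angptl4, a fasting- and lipid-induced inhibitor of lipoprotein lipase, was at most 0.305 TPM in sham and at 8.82, 23.2, 8.91 and 202 TPM in UUO (log2 change 4.27, SE 0.68, adjusted p = 0.00812). UUO replicate 4 stood far above the other 3.

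Of the lipid, lysosome and translation lists, 17.9%, 21.2% and 15.6% of the tested genes were called, against 13.0% of all genes. Plin2, which coats lipid droplets, rose by 1.00 from 59.7 to 66.1 TPM to between 101 and 177 TPM (SE 0.16, adjusted p = 0.00845), and the sterol enzyme Fdft1 rose by 0.79, while Abcg1, a sterol exporter, fell by 1.51 and Mvd by 0.80. The call of Mvd was lost in 6 of 8 fits, up to an adjusted p of 0.0811 without sham replicate 2. Of 28 tested sterol and lipid genes 23 did not pass. Rilp, an effector of RAB7 that moves lysosomes, was at 68.6, 67.4, 69.4 and 53.1 TPM in sham and at 26.8, 21.7, 23.1 and 17.7 TPM in UUO (log2 change -1.53, SE 0.15, adjusted p = 0.0018). Every sham replicate was above 50 TPM and every UUO replicate under 30 TPM. Mitf, a factor of lysosomal genes, fell by 1.3 from 22.5 to 30.2 TPM to 13.9, 9.38, 8.61 and 7.91 TPM (SE 0.20, adjusted p = 0.00762). Flcn, which controls that family of factors, fell by 1.07, lost in 5 of 8 fits up to an adjusted p of 0.0735 without sham replicate 3, and Wipi1 and Optn, which act in autophagy, rose by 1.13 and 0.90. Of 33 tested lysosome and autophagy genes 4 rose, 3 fell and 26 did not pass. Polyamine enzymes changed in both directions. Sat1, which acetylates polyamines, rose by 1.48 from 1233 to 1485 TPM to 2016, 3852, 4364 and 5769 TPM (SE 0.26, adjusted p = 0.0107). Odc1, which starts their synthesis, rose by 1.44 and Amd1 fell by 0.69, with calls lost in 3 and 7 of 8 fits, up to an adjusted p of 0.0549 without UUO replicate 4 and 0.0823 without sham replicate 3. Odc1 was lowest of the UUO arm in replicate 3, at 35.1 TPM, as was the proximal tubule sum, whose part was not tested. On the list of ribosome biogenesis and translation that holds these polyamine enzymes, 32 were tested, 4 rose and 1 fell. The cold-inducible RNA-binding gene Rbm3 rose by 1.02 from 71.8 to 115 TPM to between 130 and 204 TPM (SE 0.18, adjusted p = 0.011), and Cirbp by 0.67, while Rbm5 and Hnrnpc fell by 0.63 and 0.39 and were lost after rescaling. The call of Cirbp was lost in 7 of 8 fits, up to an adjusted p of 0.103 without UUO replicate 2. The other 28 of 32 tested splicing genes did not pass (12.5% called), and of 13 tested circadian genes only Ciart (7.69%) was called. It rose by 1.86, lost in 5 of 8 fits up to an adjusted p of 0.0843 without sham replicate 2.

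Of the transcription factors of the collecting duct, Elf3 and Ets2 rose and Hoxb7 fell in all 8 fits without 1 replicate. Elf3, an epithelial ETS factor, was at 106, 87.1, 112 and 91.7 TPM in sham and at 181, 231, 204 and 310 TPM in UUO (log2 change 1.20, SE 0.16, adjusted p = 0.00457). The related Ets2 rose by 1.09 from 0.70 to 1.26 TPM to between 2.65 and 4.06 TPM. Hoxb7, a homeobox gene of the ureteric lineage, was at 295, 298, 247 and 300 TPM in sham and at 157, 157, 151 and 137 TPM in UUO (log2 change -0.91, SE 0.10, adjusted p = 0.00218). The arms were tight and clearly apart. Pparg rose by 0.83, lost in 7 of 8 fits with an adjusted p of up to 0.108 without sham replicate 3. Of 48 listed factors 35 were tested, 4 rose, 2 fell and 29 did not pass, at a median of -0.05. The 17.1% called was near the 13.0% over all genes.

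Several abundant genes outside the lists, chosen after their values were seen, also fell. Ackr3, an atypical receptor that clears the chemokine CXCL12, was at 390, 266, 479 and 321 TPM in sham and at 210, 131, 132 and 97.2 TPM in UUO (log2 change -1.39, SE 0.25, adjusted p = 0.0111). Kitlg, the ligand of the receptor KIT, fell by 1.10 from 59.9 to 77.5 TPM to between 23.97 and 42.8 TPM. Cdkl1, a kinase of cilia, fell by 1.19 from 333 to 491 TPM to between 138 and 244 TPM. Among the 10 largest falls by the naming rule, Pik3r1, the regulatory subunit of PI3 kinase, was at 19.1, 19.5, 36.1 and 8.82 TPM in sham and at 2.81 to 5.93 TPM in UUO (log2 change -1.89, SE 0.36, adjusted p = 0.0136). Il36rn, the antagonist of interleukin-36, had the lowest value, -2.08, with a call lost without sham replicate 2 (adjusted p = 0.0533). The others of that group were Banp, Grcc10, Anxa9, Smtn, Terc, the telomerase RNA, and Trem3, with log2 changes between -1.77 and -1.94. The calls of Smtn and Trem3 were each lost in 2 of 8 fits, up to 0.0578 and 0.0556 without sham replicate 2. Gng13, a G protein subunit among the largest rises, was at 2.91 to 38.3 TPM in sham and at 148, 193, 50.6 and 121 TPM in UUO, again with UUO replicate 3 lowest, and without sham replicate 2 its adjusted p was 0.0514. Androgen-regulated and transport genes of the proximal tubule, also chosen after their values were seen, were likewise lowest in UUO replicate 3 within that arm. Kap was at 888, 735, 336 and 1168 TPM in UUO and rose by 3.06, Slc7a13 by 3.12 and Ggt1 by 3.08.

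The question of where the CCD response differed from that of cTAL was tested on CCD minus cTAL within each replicate number. Of 11084 genes 51 (0.460%) had a change that differed, 25 with a higher and 26 with a lower change in CCD. Ifit3 and Ifit2 had the widest gaps of the first kind, with changes of 3.41 and 2.90 in CCD and -0.64 and -0.75 in cTAL (differences 4.06 and 3.64, adjusted p = 0.0482 and 0.0346). Nectin2 also changed more in CCD, by 2.13 (adjusted p = 0.0346). In the other direction stood Jun, with -0.18 in CCD and 2.57 in cTAL (difference -2.75, adjusted p = 0.0346), and Sgk1, with 0.61 and 2.65 (difference -2.03, adjusted p = 0.0450). Hist1h1c, a linker histone chosen after its values were seen, fell by 0.89 in CCD and had a change of 2.63 in cTAL (difference -3.52, SE 0.25, adjusted p = 0.00227). Its fall in CCD alone was lost in 4 of 8 fits, up to an adjusted p of 0.0742 without sham replicate 2. Leukocyte genes such as Fcer1g, with 0.51 in CCD and -2.22 in cTAL, were among the 25, and the part of leukocytes was not tested. For Aqp2 and Ccl20 the difference did not pass (adjusted p = 0.550 and 0.304), and the values of 1.52 and 4.63 in cTAL stand beside -1.24 and 6.62 in CCD. The cTAL value of Aqp2 is imprecise (SE 1.64), from 361, 0.34, 4.34 and 0.41 TPM in sham and 10.4 to 51.0 TPM in UUO. The 51 calls were fragile: their number fell to between 1 and 35 when the replicates of 1 number and arm were left out. It fell to 1 without sham replicate 2, 3 or 4 or without UUO replicate 2 or 3.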

How the data were processed

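RNA of hand-dissected rat CCD and cTAL was sequenced from poly(A)-selected, SMARTer-amplified cDNA. The genome build was Rnor_6.0, and the tools listed are RSEM 1.3.3 and STAR 2.7.3, per the submitters' processing notes. The values used are TPM per gene, as deposited by the authors. TPM keep no depth, amplification was not corrected with molecular tags as far as the sources used here say, and whether counting used strand is not given in the sources used here, so overlapping and antisense genes cannot be told apart. The 30 min table was not used here.

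Values were taken as log2(TPM + 1), the 2 libraries of each CCD replicate number were averaged on that scale, and printed replicate TPM are their arithmetic mean. Genes with at least 1 TPM in 4 of 8 replicates entered limma (version 3.58.1, under R 4.3.3; linear model, mean-variance trend, Benjamini-Hochberg adjustment, threshold 0.05), which was checked on simulated data. Whether the CCD change differs from that of cTAL was tested on CCD minus cTAL within replicate number. Single values used a two-sided exact permutation test. Other software was the R package data.table, version 1.17.8, Python 3.11.15, pandas 2.3.3, scipy 1.17.1 and matplotlib 3.10.9. Every adjusted p printed is limma's.

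Of 1172 gene list entries 1142 were matched to the table, 13 by a RefSeq synonym. The members and lists were chosen with earlier results of these data known. Genes were named as the 10 largest called rises and falls at 5 TPM or more without overlap between arms, leaving out clone, locus, small RNA, shared and haemoglobin symbols, as up to 4 called members per list, and as a fixed set of transport and inflammatory genes. Other list members, and genes outside the lists, were named after their values were seen. Promoter windows and sequences are from RefSeq (GRCr8), matched by symbol, and no coordinate was converted. Same-numbered UUO and sham replicates deviated together with correlations of 0.0941, 0.120, -0.218 and -0.162 for replicates 1 to 4, so the numbers were not used as pairs of UUO and sham. CCD and cTAL of the same number and arm deviated together with correlations of 0.0656 to 0.346, and the labels do not say that they share an animal, so subtracting within number assumes a link that the labels do not state. Alternatives covered the pseudocount, filter, scale, each library alone, replicate weights, trend, replicate block and each replicate left out. A fit without 3 libraries rich in Umod and a rescaling without mitochondrial, haemoglobin and Umod transcripts were added after seeing the data. Results for a few members of the lists are not reported here, though the lists' counts and medians include them.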

Additional observations from a re-analysis of the deposited data

Results flagged for a closer look

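Among the genes named, 356 groups of 4 replicates were examined for a replicate that stands far from the other 3, and 22 had one. Chance alone gives about 1 such group in 20. In the UUO arm, replicate 1 stood low for Tnfrsf12a (339.7 TPM), Tgif1 (19.26 TPM) and Ifit2 (7.32 TPM) and high for Mitf (13.92 TPM). UUO replicate 3 stood low for Gsta4 (394.8 TPM). UUO replicate 4 stood low for Scnn1b (151.6 TPM), Flcn (9.56 TPM) and Ldha (1918 TPM). The same replicate stood high for Akap12 (17.14 TPM), Cyr61 (5.015 TPM), Rnd3 (41.8 TPM) and Stat3 (31.9 TPM).

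In the sham arm, replicate 1 stood low for Ddit4 (6.26 TPM). Sham replicate 2 stood high for Aqp2 (11320 TPM) and Chac1 (1.065 TPM) and low for Gsta4 (231.3 TPM). Sham replicate 3 stood low for Hoxb7 (247.2 TPM) and Il17re (6.57 TPM) and high for C1qb (17.04 TPM). Sham replicate 4 stood low for Nr3c2 (5.865 TPM), Rilp (53.06 TPM) and Plk2 (6.035 TPM).

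The 3 h change differed between CCD and cTAL by the test of the difference itself for 7 of the genes named. CCD minus cTAL of the log2 change was 4.058 for Ifit3, 3.644 for Ifit2, 2.722 for Fcer1g and 2.126 for Nectin2. It was -3.52 for Hist1h1c, -2.747 for Jun and -2.032 for Sgk1.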

How the results depend on the processing

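The number of genes called in CCD, 526 higher and 847 lower, depended on the processing, while of the 160 called genes named here no log2 change took the opposite sign under any alternative run. With no filter beyond a value above 0, 341 genes were higher and 511 lower. Library 1 alone gave 167 and 464, and library 2 alone 231 and 225. Median-of-ratios rescaling gave 710 and 454. Leaving out 1 replicate gave 229 to 617 higher, and 231 to 1156 lower, with both lowest values without sham replicate 2. The other alternatives moved neither count by over 1.5 times, except the block below. With the replicate number as a block 390 genes were higher and 380 lower, and 725 of the 1373 calls were kept, but UUO and sham numbers were not treated as pairs. Of the 51 genes whose change differed between CCD and cTAL, the count was 97 with an interaction term over 16 samples, 161 with a pseudocount of 5 TPM, 4 with the replicate block and 1 to 35 when 1 replicate number and arm was left out. The difference of mean log2 for Aqp2 was -0.94 with library 1 alone and -1.54 with library 2 alone, and lay between -1.03 and -1.38 with 1 replicate left out. The cause of these shifts was not tested. Depth is unknown, 4 replicates per arm limit the precision, and genes near 1 TPM are the least certain.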
